A study of Mus musculus with 7 samples.

Results

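The miRNAs described here are those cut from the hairpins of miR-199a, miR-199b and miR-214. They were taken by name from the normalized table of a mouse miRNA array experiment, with any arm or star form included. This gave 5 of the 252 mouse miRNA rows: miR-199a-3p, miR-199a-5p, miR-199b*, miR-214 and miR-214*. The star marks the other arm of a hairpin in older nomenclature. In the scanner files, which carry newer names, miR-199b* is miR-199b-5p, miR-214 is miR-214-3p and miR-214* is miR-214-5p. The array carried these 5 forms of the 3 miRNAs and no other, and the scanner software called all of them detected on 7 of 7 arrays.

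The cells came from soft tissue sarcomas of p53 knocked out mice, grown in adherent culture, so that p53 was absent in all groups. Control primary cells (2 arrays) carried a non-target shRNA, and Rb-depleted primary cells (2 arrays) carried the shRNA shRb1 against the retinoblastoma gene Rb, a repressor of E2F transcription factors. Rb-depleted secondary cells (3 arrays) carried the same shRb1 and had passed through spheres in serum-free methylcellulose, which were picked by hand, pooled and returned to adherent culture. No array of secondary control cells was analysed here, so that Rb depletion and passage through spheres cannot be told apart in the secondary cells when they are set against control cells. Expression of Rb is not measured by a miRNA array and was not checked here. The study measured Rb RNA in such transduced cells by RT-qPCR.

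A miRNA is cut from a hairpin precursor, and either arm of the hairpin can be loaded into Argonaute, where bases 2 to 8 (the seed) pair with messenger RNAs. In vertebrates, miR-199a and miR-214 are made from a shared long noncoding transcript, Dnm3os, which is antisense to the dynamin gene Dnm3. This transcript is known for its expression in mesenchymal cells of the embryo and in fibroblasts, where Twist1 activates it, and mice without it have skeletal defects. The remaining hairpins, a second copy of miR-199a and that of miR-199b, lie antisense to the other dynamin genes.

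The mature sequences show which members a probe can tell apart. They were taken from RefSeq (GRCm38.p6) and are given from 5′ to 3′ with the seed in capitals.
miR-199a-5p: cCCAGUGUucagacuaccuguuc
miR-199a-3p: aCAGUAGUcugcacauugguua
miR-199b-3p: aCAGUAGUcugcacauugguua
miR-214-3p: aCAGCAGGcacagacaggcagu
miR-214-5p: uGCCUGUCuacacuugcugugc

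The 3p arms of miR-199a and miR-199b are the same molecule, so that the signal called miR-199a-3p is the sum over 3 hairpins. Among 1679 mature miRNA names in this RefSeq set, miR-199b-3p was the only other one with the seed of miR-199a-3p, and miR-761 was the only other one with the seed of miR-214-3p. The seeds of miR-199a-5p and miR-214-5p were shared with 0 other names. The seeds of the members thus fall into 4 groups, and the 2 arms of each hairpin have different seeds. The set holds no mature entry for miR-199b-5p. The Mir199b hairpin contains a stretch of 23 bases from its base 26 that has the single difference C10U from miR-199a-5p (positions from 1 at the 5′ end). It is shown with that base in capitals beside miR-199a-5p.
miR-199a-5p: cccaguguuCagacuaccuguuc
Mir199b hairpin stretch: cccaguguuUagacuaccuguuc

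Whether the probes for miR-199a-5p and miR-199b* share target molecules across this base was not tested. The 2 hairpins inside Dnm3os follow, with the mature arms in capitals (RefSeq, GRCm38.p6, plus strand, chr1:162217814-162217923 for Mir199a-2 and chr1:162223368-162223477 for Mir214).
Mir199a-2: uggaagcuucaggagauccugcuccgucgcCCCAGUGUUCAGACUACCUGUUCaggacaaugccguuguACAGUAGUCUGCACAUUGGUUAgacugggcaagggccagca
Mir214: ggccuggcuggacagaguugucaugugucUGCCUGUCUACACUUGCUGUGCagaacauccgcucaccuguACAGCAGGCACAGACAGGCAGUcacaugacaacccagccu

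In NCBIM37, the build named in the array files, Mir199a-2 (ENSMUSG00000070126) lies on chromosome 1 from 164147945 to 164148054 and Mir214 (ENSMUSG00000065516) from 164153499 to 164153608, both on the plus strand with 5444 bases between them. Both lie in annotated exons of Dnm3os (ENSMUSG00000078190, 164147754 to 164155681) and opposite an intron of Dnm3. Mir199a-1 (ENSMUSG00000065547) lies on chromosome 9 from 21300939 to 21301008 on the minus strand, opposite an intron of Dnm2. The RefSeq sequence of Mir199b matched chromosome 2 from 32173980 to 32174089 on the plus strand, opposite an intron of Dnm1. Only miR-214 and miR-214* can therefore be assigned to the Dnm3os locus alone, since miR-199a-5p is made from 2 hairpins and miR-199a-3p from 3.

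The promoter of Dnm3os is shown because 4 of the 5 members can be made from its transcript. It spans 250 bases before to 50 bases after the start (RefSeq, GRCm38.p6, plus strand, chr1:162217373-162217672). Matches to the E-box, the motif of Twist1 and other basic helix-loop-helix factors, and to the CArG box, the motif of serum response factor, are in capitals.
Dnm3os promoter: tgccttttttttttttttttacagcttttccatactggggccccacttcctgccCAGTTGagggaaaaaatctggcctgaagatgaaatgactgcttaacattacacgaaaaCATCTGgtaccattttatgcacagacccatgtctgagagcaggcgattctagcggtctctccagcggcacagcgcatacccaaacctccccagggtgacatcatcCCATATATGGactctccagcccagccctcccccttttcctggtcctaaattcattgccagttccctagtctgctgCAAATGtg

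Both strands were searched. The E-box letters CANNTG matched 3 times, and 72.3% of 32817 mouse promoters of this length hold at least 1 match. The CArG box matched once, beginning 33 bases before the start, and 1.63% of the promoters hold one. None of the matches overlapped another. The E2F letters TTTCGCGC, TTTGGCGC, TTTCCCGC and TTTGCCGC matched 0 times, where 2.26% of the promoters hold at least 1. These are matches of letters and not measured binding sites.

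The array reports total gene signal, the summed brightness of a miRNA's probes in intensity units, and the deposited table holds log2 values that the authors quantile-normalized, which gives every array the same distribution. The number of arrays limits the precision of every comparison. By total gene signal, miR-199a-3p ranked from 11 to 19 among the 252 rows on the 7 arrays, miR-199b* from 25 to 43, miR-199a-5p from 32 to 45, miR-214 from 45 to 52 and miR-214* at 172 or lower. The order miR-199a-3p, miR-199b*, miR-199a-5p, miR-214, miR-214* held on every array. Signals of different miRNAs also depend on their probes, so that this is an order of brightness. The 5 members took 1.995 and 2.20% of the summed signal of the table in control primary cells, 1.913 and 1.841% in the Rb-depleted primary group and 2.50, 2.35 and 2.57% in secondary cells. The shares were thus lowest in the Rb-depleted primary cells and highest in the secondary cells, with no overlap between groups. miR-199a-3p, the brightest member, weighs most in these shares. Among the normalized values of all rows, 51.2 to 57.5% did not overlap in a given pair of groups.

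Markers of other cell types were read from the scanner's detection calls. Of 12 epithelial forms on the array (the miR-200 family, miR-203 and miR-205) and of 1 liver form (miR-122), 0 were detected on any array, and of 7 blood forms 1, miR-451a, was detected on 1 array of Rb-depleted primary cells at a signal of 8.81. Among 8 striated muscle forms only miR-206-3p was detected, at 46.3 and 47.0 in control primary cells, 43.8 and 27.8 in the Rb-depleted primary group and 15.4, 36.4 and 12.9 in secondary cells. The endothelial miR-126-3p gave 7.02 to 10.73 in primary cells and was not detected in secondary cells. Of 6 neural forms 3 were detected, both arms of miR-9 and miR-128-3p, whereas both arms of miR-124 and miR-137-3p were not detected on any array. The detected forms had a summed signal of 209.6 to 220.2 in control primary cells, 127.4 to 183.7 in the Rb-depleted primary group and 96.6 to 165.6 in secondary cells. Of 3 smooth muscle and fibroblast forms 2, miR-143-3p and miR-145a-5p, were detected on all 7 arrays, and miR-145a-3p was not detected on any. The summed signal of the detected forms was 1567 to 1696 in control primary cells, 1120 to 1342 in the Rb-depleted primary group and 1229 to 1808 in secondary cells. Most of this sum was miR-143-3p, at 1414.9 and 1560.5, then 1221.9 and 1010.4, then 1420.2, 1137.4 and 1692.2 in the same order of groups. miR-145a-5p gave 152.38 and 135.28, then 120.6 and 109.21, then 98.06, 91.49 and 115.55. It was thus below both control arrays on every Rb-depleted array, whereas miR-143-3p in secondary cells overlapped the control arrays. All marker signals given here are unnormalized. Without normalization the median log2 fold change of all rows against control cells was itself -0.26 in Rb-depleted primary and -0.46 in secondary cells. In the normalized table miR-145 differed from control cells by 0.03 and -0.05 in these groups (limma adjusted p = 0.94 and 0.80). The part of other cell types in the results below was not tested, and in bulk RNA fewer cells of a type and less miRNA per cell cannot be told apart.

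miR-199a-3p, the brightest member, had normalized levels of 12.33 on both control arrays, 12.10 on both Rb-depleted primary arrays and 12.78, 12.60 and 12.72 on the arrays of secondary cells (log2). The 3 groups did not overlap, with the primary Rb-depleted cells lowest and the secondary cells highest. miR-199a-5p, the opposite arm, had 10.78 on both control arrays, 10.47 on both Rb-depleted primary arrays and 11.10, 10.95 and 11.10 in secondary cells. Its groups lay in the same order, again without overlap. Over all rows, 51.2 to 57.5% did not overlap in a given pair of groups, and the share without overlap among all 3 groups was not counted. The equal values are a product of quantile normalization, since 6 of the 25 pairs of replicate values among the members were equal in the table and 0 were equal in the scanner files. The spread of these 2 rows within the primary groups is therefore 0 in the table and says nothing about their biological spread.

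miR-199b*, the 5p arm of the miR-199b hairpin, had levels of 11.05 and 11.23 in control primary cells, 10.80 and 10.60 in the Rb-depleted primary group and 11.34, 11.39 and 11.43 in secondary cells (log2). It followed the order of the miR-199a arms, also without overlap between the groups, which in pairs of groups was common over all rows. miR-214, the main arm of its hairpin, had 9.99 on both control arrays, 9.99 and 9.90 in the Rb-depleted primary group and 9.99, 10.38 and 10.10 in secondary cells. All 3 groups overlapped or touched at the value of 9.99. miR-214*, the weak arm, had 5.32 and 5.34 in control primary cells, 5.20 and 5.35 in the Rb-depleted primary group and 5.77, 5.60 and 5.68 in secondary cells. Its secondary arrays were all above its primary arrays, and the 2 primary groups overlapped.

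**Figure D1:**
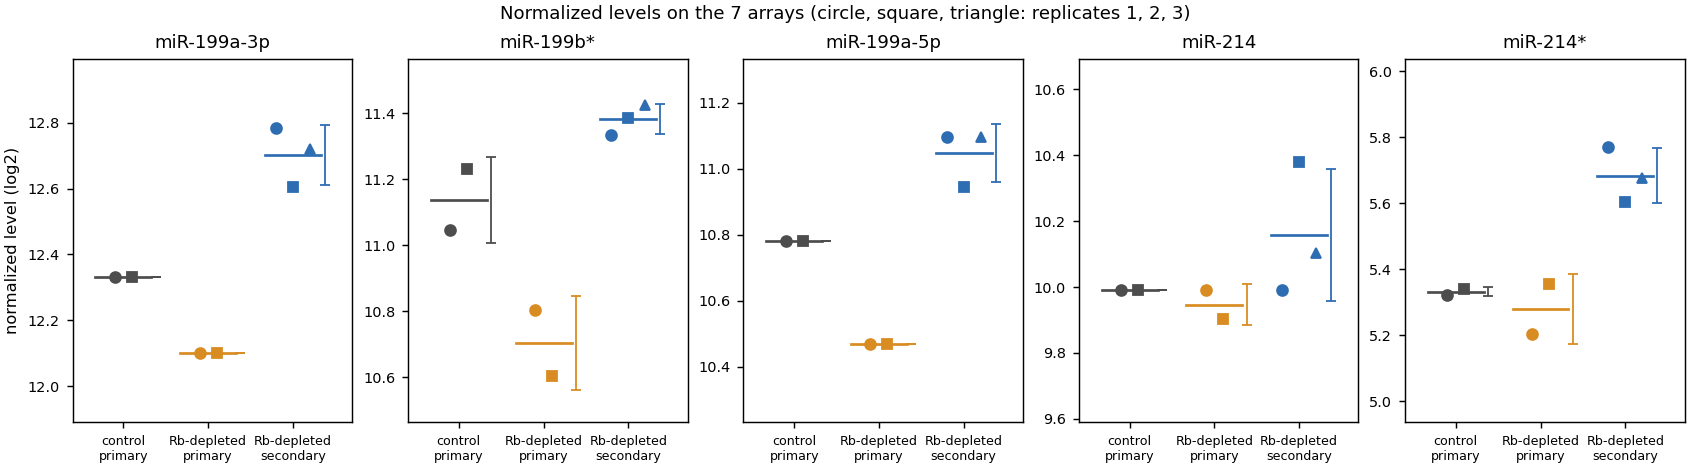
Normalized level (log2, vertical axis) of each member on each array, grouped by cell type (horizontal axis); points are arrays, horizontal bars are group means and error bars are the SD (n = 2, 2 and 3), which is 0 where the normalization gave equal values. The miR-199 members are lowest in Rb-depleted primary cells and highest in secondary cells, while the miR-214 values of each group include 9.99.

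Before normalization the picture against control cells was different. The total gene signal of miR-199a-3p was 5236 and 5799 in control primary cells, 4786 and 4031 in the Rb-depleted primary group and 6163, 5333 and 5893 in secondary cells. The Rb-depleted primary cells were below both other groups, and the secondary cells overlapped the control cells. miR-199a-5p gave 2071 and 2168, then 1724 and 1349, then 2083, 1643 and 1949 in the same order of groups. miR-199b* gave 2474 and 2657, 2045 and 1610, and 2485, 2306 and 2584. For miR-199b* the Rb-depleted primary cells were again below all other arrays, whereas for miR-199a-5p replicate 2 of the secondary cells lay below replicate 1 of the Rb-depleted primary cells. miR-214 gave 1154 and 1185, 997 and 936, and 997, 1134 and 970, and miR-214* gave 49.4 and 49.3, 39.8 and 36.5, and 48.8, 42.5 and 45.2. Both arms of miR-214 were thus brightest on the control arrays. The summed signal of all rows was also highest there, at 550498 and 538586, against 432616 to 501515 on the other arrays. Relative to the median of all rows, miR-214 and miR-214* were higher in secondary than in control cells, by 0.28 and 0.34 (log2). In Rb-depleted primary cells these values were -0.02 and -0.11. The scanner software gave the members' signals errors of 7.22 to 10.57% of the signal.

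**Figure D2:**
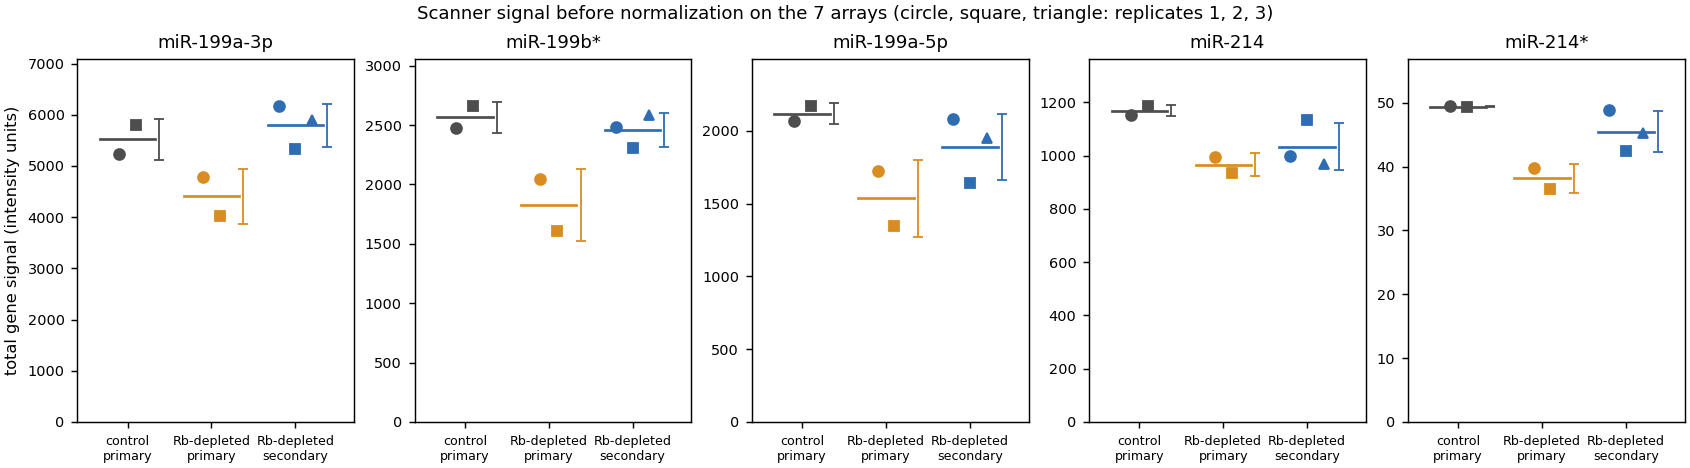
Total gene signal before normalization (intensity units, vertical axis from 0) of each member on each array, grouped by cell type; points are arrays, horizontal bars are group means and error bars are the SD (n = 2, 2 and 3). Each member's mean is lowest in Rb-depleted primary cells, and the secondary arrays of miR-199a-3p overlap the control arrays.

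The probes of a miRNA moved together. Each of the 4 brighter members was measured with 2 probes of 10 spots, and in all 8 of these probes the mean log2 signal was lower in Rb-depleted primary than in control primary cells (differences of -0.61 to -0.21) and higher in the secondary group than in it (0.09 to 0.44). Against control cells the probes of the secondary cells were split between 2 above and 6 below (0.11 to -0.38). These probe signals are not normalized. Without normalization the median of all rows against control cells was -0.26 in Rb-depleted primary and -0.46 in secondary cells. Between secondary and Rb-depleted primary cells it was -0.18. miR-214* had 4 probes of 5 spots, of which 1 carried the signal (36.5 to 49.4) and the other 3 were between -1.84 and 3.21, so that its level rests on a single probe.

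The first comparison addressed whether any of the members differed among the 3 groups. By limma's moderated F-test over all 252 rows, 4 of the 5 members had a Benjamini-Hochberg adjusted p under 0.1, the threshold of the study: miR-199a-3p (adjusted p = 0.0170), miR-199a-5p (0.0174), miR-199b* (0.0202) and miR-214* (0.0418). The adjusted p of miR-214 was 0.379. Over all rows 43.3% passed, so that a call in this test was common. Without normalization only miR-199b* passed, and with scaling of each array to its 75th percentile miR-199a-3p and miR-199b* passed.

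Setting Rb-depleted primary against control primary cells addressed depletion of Rb in adherent culture, and all its arrays shared a slide. All 5 members had a lower mean in Rb-depleted cells, and none of these differences passed the test. The log2 fold changes were -0.23 for miR-199a-3p (standard error 0.087, limma adjusted p = 0.177), -0.31 for miR-199a-5p (standard error 0.086, adjusted p = 0.121) and -0.43 for miR-199b* (standard error 0.11, adjusted p = 0.113). For miR-214 and miR-214* they were -0.04 and -0.05, with 95% intervals of -0.40 to 0.31 and -0.29 to 0.19. These intervals are not adjusted for the number of rows, and changes in either direction within them are not excluded by these arrays. At an unadjusted p under 0.05, 3 members stood beside 64 of all rows, and 1.19% of all rows were called lower. In 3 members the groups did not overlap, as in 57.5% of all rows. The median log2 fold change was -0.23 over the members and 0.01 over all rows. Without normalization the members' differences were -0.50 to -0.28, where the median of all rows was itself -0.26. Relative to that median they were -0.24 for miR-199b*, -0.22 for miR-199a-5p, -0.11 for miR-214*, -0.07 for miR-199a-3p and -0.02 for miR-214.

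The comparison of Rb-depleted secondary with control primary cells addressed depletion of Rb together with passage through spheres. All 5 members had a higher mean in the normalized table, and 2 rose: miR-199a-3p by a log2 fold change of 0.37 (standard error 0.080, limma adjusted p = 0.0298) and miR-214* by 0.35 (standard error 0.088, adjusted p = 0.0402). Over all rows 13.1% were called higher. The values of the other members were 0.27 for miR-199a-5p (adjusted p = 0.0659), 0.24 for miR-199b* (0.145) and 0.17 for miR-214 (0.396). In 4 members the groups did not overlap, as in 52.0% of all rows. The median log2 fold change was 0.27 over the members and 0.03 over all rows. The direction depended on the normalization. Without it the median of all rows was -0.46, and miR-199a-3p was the only member above 0, at 0.07, with the other 4 between -0.18 and -0.06. Relative to that median all 5 were higher, by 0.28 for miR-214, 0.29 for miR-199a-5p, 0.34 for miR-214*, 0.40 for miR-199b* and 0.53 for miR-199a-3p. Neither call held without normalization (adjusted p = 0.703 and 0.471) or with scaling to the 75th percentile (0.0755 and 0.202), and 0 members were called without control replicate 1, without control replicate 2, without secondary replicate 1 or without secondary replicate 3. Without secondary replicate 2 there were 3, and without either array of Rb-depleted primary cells there was 1, miR-199a-3p.

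The comparison of Rb-depleted secondary with Rb-depleted primary cells, which both carried shRb1, addressed passage through spheres and picking. Here 4 of the 5 members rose in the secondary cells, miR-199b* by a log2 fold change of 0.68 (1.60-fold, standard error 0.10, limma adjusted p = 0.0159), miR-199a-3p by 0.60 (1.52-fold, standard error 0.080, adjusted p = 0.0146), miR-199a-5p by 0.58 (1.49-fold, standard error 0.079, adjusted p = 0.0146) and miR-214* by 0.40 (1.32-fold, standard error 0.088, adjusted p = 0.0337). Over all rows 12.7% were called higher. miR-214 had a log2 fold change of 0.21 with a 95% interval of -0.11 to 0.53 (adjusted p = 0.290). By unadjusted p, miR-199a-3p, miR-199a-5p and miR-199b* stood at places 6, 8 and 9 of the 252 rows. The standard errors and places of the miR-199a arms rest in part on primary replicates that the normalization made equal. The groups did not overlap in 4 members, as in 51.2% of all rows. The median log2 fold change was 0.58 over the members and 0.02 over all rows.

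Without normalization all 5 members stayed higher in secondary cells than in the Rb-depleted primary group, by 0.09 for miR-214, 0.25 for miR-214*, 0.30 for miR-199a-5p, 0.40 for miR-199a-3p and 0.44 for miR-199b*, although the median of all rows was -0.18. None of these values was called, and the smallest adjusted p was 0.0718, for miR-199b*. With scaling to the 75th percentile miR-199a-3p (0.61, adjusted p = 0.0489) and miR-199b* (0.65, adjusted p = 0.0365) were called. The call of miR-214* was the least stable, since it held in 3 of 16 alternatives and was lost in 6 of the 7 fits without 1 array, against 11 or 12 of 16 for the miR-199 members. For miR-199a-3p and miR-199a-5p the residual spread in the table comes from the secondary arrays alone, because their primary replicates are equal after normalization. Without Rb-depleted primary replicate 2, 0 members were called, with log2 fold changes of 0.60 for miR-199a-3p, 0.58 for miR-199a-5p and 0.58 for miR-199b* (adjusted p = 0.0838 for each).

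Slide and group were partly confounded, because replicate 1 of the secondary cells shared the slide of the primary cells and replicates 2 and 3 lay on a second slide. Within the first slide, which holds 1 secondary array, the log2 fold changes against Rb-depleted primary cells were 0.68 for miR-199a-3p, 0.63 for miR-199a-5p, 0.63 for miR-199b*, 0.49 for miR-214* and 0.04 for miR-214. No call is drawn from that slide for the arms of miR-199a, whose replicate values there are equal through the normalization. miR-199b* and miR-214* were not called there (limma adjusted p = 0.0947 and 0.0781). With slide as a term in the fit of all arrays the log2 fold changes equal those within the first slide by construction, since the second slide held secondary arrays alone. Both sets of values rest on secondary replicate 1. With this term 0 members were called (limma adjusted p from 0.0548 for miR-199a-3p to 0.0842 for miR-199b* and miR-214*, and 0.871 for miR-214). In that fit 0 of all rows were called in this comparison. In the other 2 comparisons 0 members were called with slide as a term.

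**Figure D3:**
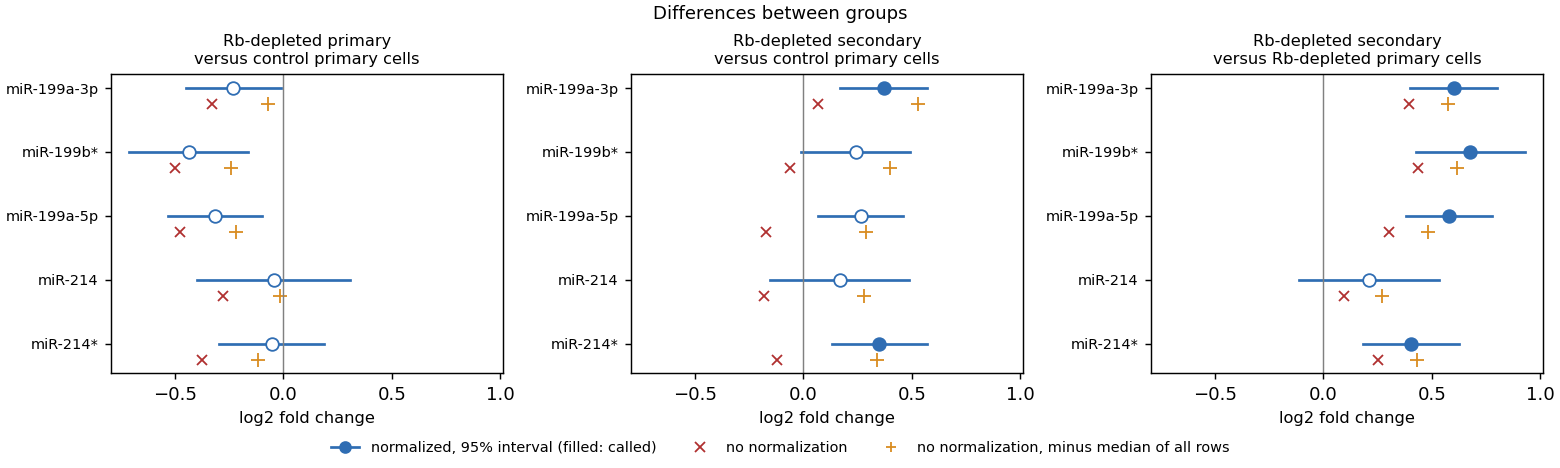
Log2 fold change (horizontal axis) of each member in the 3 comparisons; circles with lines are normalized values with limma's 95% intervals, filled where called, crosses are values without normalization, and plus signs are these minus the median of all rows. In the comparison of secondary with Rb-depleted primary cells all symbols lie above 0, whereas against control cells 4 of the 5 crosses of the secondary cells lie below 0.

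The study selected miRNAs that passed the F-test and then moved one way in both contrasts with control cells after Dunnett's adjustment. The 2 comparisons share the control arrays. The same steps were applied here with limma's moderated statistics in both, which are not the study's tests, so that the rows that pass are not the study's selection. None of the 5 members was selected in this way, where 6.75% of all rows were. miR-199a-5p passed in both (limma, Dunnett-adjusted p = 0.0215 in the primary and 0.0294 in the secondary cells), but in opposite directions. miR-199b* passed in the primary cells (0.0154 and 0.0926), miR-199a-3p (0.0713 and 0.00753) and miR-214* (0.807 and 0.0147) in the secondary cells, and miR-214 in neither (0.931 and 0.379). With Benjamini-Hochberg adjustment in place of Dunnett's the number selected was also 0.

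Differences between members on the same array ask whether the arms and loci moved by the same amount. The level of miR-214 minus that of miR-199a-3p was -2.34 on both control arrays, -2.11 and -2.20 in the Rb-depleted primary group and -2.79, -2.23 and -2.62 in secondary cells (log2). On this scale miR-214 was nearest to miR-199a-3p in Rb-depleted primary cells and farthest on 2 of the 3 secondary arrays. The mean differed by -0.39 between secondary and Rb-depleted primary cells, whose values did not overlap (exact permutation test, two-sided, p = 0.200, the smallest these arrays allow), and by 0.19 between Rb-depleted primary and control cells (exact permutation test, p = 0.333, also the smallest possible). In 9 such tests of 3 pairs the smallest p adjusted over the 9 was 0.675, and the design cannot reach 0.05. In scanner signal the same difference was -2.18 and -2.29 in control cells, -2.26 and -2.11 in the Rb-depleted primary group and -2.63, -2.23 and -2.60 in secondary cells, so that all groups overlapped. Rb-depleted primary and control cells then differed by 0.05 (exact permutation test, p = 0.667), and secondary and Rb-depleted primary cells by -0.30 (exact permutation test, p = 0.400).

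miR-199a-5p minus miR-199a-3p was -1.55 on average in control cells, -1.63 in Rb-depleted primary cells and -1.66 in secondary cells. Against control cells the differences were -0.08 in Rb-depleted primary cells (exact permutation test, p = 0.333) and -0.11 in secondary cells (exact permutation test, p = 0.200), without overlap and with the smallest p possible in both. The secondary and Rb-depleted primary cells differed by -0.02 (exact permutation test, p = 0.600). In scanner signal these 3 differences were -0.15, -0.24 and -0.09. In scanner signal miR-199a-3p was 2.53 to 3.25 times as bright as miR-199a-5p. miR-214* minus miR-214 was -4.66, -4.67 and -4.47 on average in the 3 groups, and miR-214 was 20.4 to 26.7 times as bright as miR-214*. miR-199b* was 1.19 to 1.40 times as bright as miR-199a-5p, a pair that was described and not tested.

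**Figure D4:**
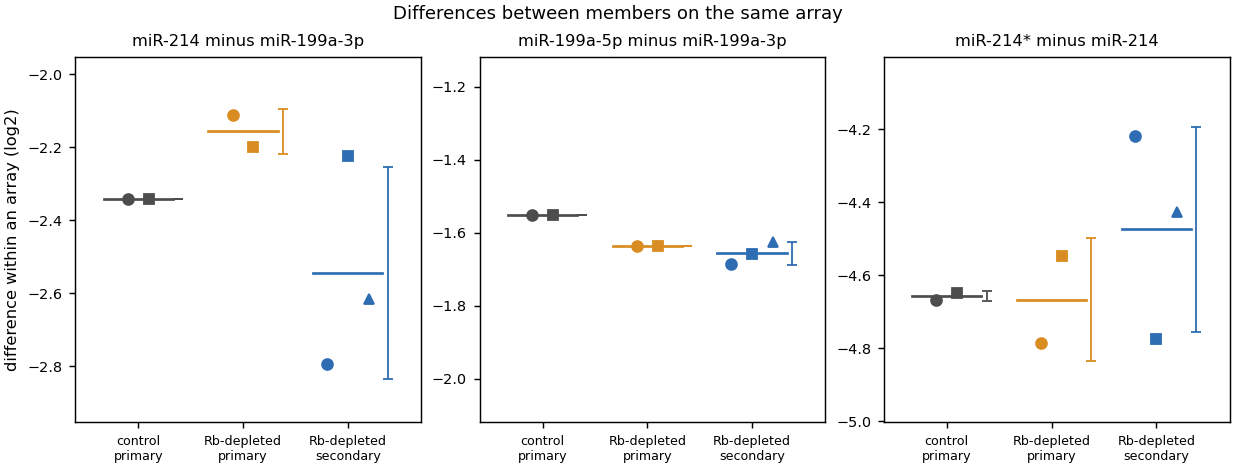
Log2 difference between 2 members on the same array (vertical axis), grouped by cell type; points are arrays (circles, squares and triangles for replicates 1, 2 and 3), horizontal bars are group means and error bars are the SD (n = 2, 2 and 3). The values of miR-214 minus miR-199a-3p in Rb-depleted primary cells (-2.11 and -2.20) lie above all others.

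The profile over the 7 arrays was compared with all other rows by the root mean square difference of the centred log2 values, as a description of arrays that share normalization and slides. Of 251 other rows, miR-199a-5p was nearest to miR-199a-3p (0.048), and the reverse also held. The next were miR-101b for both (0.081 and 0.083), then miR-362-5p for miR-199a-3p (0.088) and miR-199b* for miR-199a-5p (0.10). miR-376c was nearest to miR-199b* (0.050), followed by the 2 arms of miR-199a. The 2 arms of the miR-214 hairpin were not near each other. For miR-214 the nearest rows were miR-30e (0.082), miR-106b (0.087) and miR-872 (0.089). Its own miR-214* was at place 43, ahead of the miR-199 members at places 73, 81 and 86. For miR-214* they were miR-101b (0.074), miR-362-5p (0.083) and let-7g (0.083), with miR-199a-3p at place 4 and miR-214 at place 44.

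The members were set beside 12 other miRNAs that are abundant in fibroblasts and smooth muscle (miR-21, miR-22, miR-29a, miR-29b, miR-29c, miR-31, miR-99a, miR-100, miR-125b, miR-143, miR-145 and miR-152), which have 17 rows. By limma over all rows 0 of the 17 were called between Rb-depleted primary and control cells, where 1 had an unadjusted p under 0.05, and their median log2 fold change was 0. The lowest was miR-143 at -0.21 (adjusted p = 0.484) and the highest miR-29b* at 0.44 (0.220). In secondary against control cells 3 of 17 rose and 0 fell, led by miR-152 at 0.85 (adjusted p = 0.0398), with miR-29a* at 0.63 and miR-29b at 0.52, beside 13.1% called higher over all rows, and the median was 0.17. In secondary against Rb-depleted primary cells 3 of 17 rose, miR-152 by 0.85 (adjusted p = 0.0428), miR-143 by 0.62 (0.0465) and miR-29b by 0.30 (0.0411), and 0 fell, beside 12.7% called higher over all rows. The lowest value there was -0.68, for miR-31 (adjusted p = 0.0832), and the median was 0.11. miR-145, which lies beside miR-143 in the genome, had -0.08 (adjusted p = 0.712).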

How the data were processed

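MiRNA expression was measured on 7 one-colour Agilent mouse miRNA arrays. The deposited table holds log2 values that the authors quantile-normalized in GeneSpring. It has 252 mouse miRNA rows and 11 control rows, and the control rows were left out. For each array the authors also deposited the scanner's spot and total gene signal intensity. The submitters' processing notes name Agilent Feature Extraction 10.7.3.1, and the headers of the deposited intensity files name 11.0.1.1. Quantile normalization of the log2 total gene signal of 718 features gave the deposited values to within 3.2e-06, and table rows were matched to scanner names by these values (tolerance 1e-05).

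All rows and arrays entered 1 fit of 3 group means with limma 3.58.1 in R 4.3.3 (statmod 1.5.0, mvtnorm 1.3.3); Python 3.11.15 with numpy 2.4.6, pandas 2.3.3 and scipy 1.17.1 read the files. The F-test was called at a Benjamini-Hochberg adjusted p under 0.1 and contrasts at one under 0.05, over all rows. Differences within arrays were tested by exact permutation. The series states independent experiments, but not whether replicates were separate cultures, so that p-values measure the spread between these arrays. The members and lists, and the rules for naming other rows (the 3 nearest profiles to each member, and the lowest and highest of the mesenchymal list with those called), were chosen with earlier results of these data known. The alternatives were other normalizations, the replicate block, slide, moderation, array weights and each array left out. The fit was tested on simulated arrays with known differences.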

Additional observations from a re-analysis of the deposited data

Results flagged for a closer look

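In 4 members the effect of the secondary cells relative to control cells differed from that of the Rb-depleted primary cells relative to the same control arrays, by the contrast of the 2 Rb-depleted groups in limma. The control arrays cancel in this difference, so that it is the comparison reported above and not a second result. The differences in log2 fold change were 0.60 for miR-199a-3p, 0.58 for miR-199a-5p, 0.68 for miR-199b* and 0.40 for miR-214* (Benjamini-Hochberg adjusted p = 0.0146, 0.0146, 0.0159 and 0.0337). Each was higher on 3 of 3 secondary arrays than on both arrays of Rb-depleted primary cells. Over all rows 12.7% were called higher and 51.2% did not overlap in this contrast. Over 16 alternatives the adjusted p ranged from 0.00575 to 0.111 for miR-199a-3p, to 0.227 for miR-199a-5p and to 0.114 for miR-199b*, and from 0.0256 to 0.199 for miR-214*. Groups of 2 or 3 arrays were not tested for single arrays that stand apart.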

How the results depend on the processing

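The number of arrays limits the precision. In Rb-depleted primary against control cells 0 members were called under all alternatives. The F-test called 4 members and the contrasts of secondary with control and with Rb-depleted primary cells called 2 and 4. These counts were 2, 0 and 2 with scaling to the 75th percentile, 1, 0 and 0 without normalization, 2, 0 and 0 with slide as a term, and 2, 1 and 2 within slide 1 alone, which was chosen after seeing the data and where the rows called have equal primary replicates. The count against control cells was 1 with all mouse miRNAs (floor of 1) and with trend and robust moderation. Leaving out 1 array gave 3 to 4, 0 to 3 and 0 to 4. With the replicate block 0 members were called in all tests, while the 4 log2 fold changes called between secondary and Rb-depleted primary cells were 0.59, 0.55, 0.66 and 0.41 and 0 of all rows were called there. Deviations of same-numbered arrays from their group means had correlations of -0.141 to 0.134. In a group of 2 arrays these deviations mirror each other, so that few of the correlations are independent. They cannot show whether same-numbered arrays share a batch, which the labels do not state. Without normalization the secondary cells were below control cells by -0.17 in miR-199a-5p, -0.062 in miR-199b*, -0.18 in miR-214 and -0.12 in miR-214*, beside the shift of all rows. Without Rb-depleted primary replicate 1, miR-214* was 0.022 above control. For miR-214* minus miR-214, the median spot signal, which includes 3 near-blank probes of miR-214*, gave 0.19 in Rb-depleted primary against control cells and -0.10 in secondary against Rb-depleted primary cells. Leaving out 1 array gave -0.13 to 0.11 for the former. The cause was not tested. Of 96 checks of the 6 calls of members over 16 alternatives, 48 kept the call and 48 did not. Among differences not called, 2 gained a call.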
